A study of Homo sapiens with 12 samples.

Results

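Kinesins are motor proteins that use ATP to move along microtubules or to take them apart, and a set of them works mainly in the dividing cell. The mitotic kinesins described here are 10 genes (KIF11, KIFC1, KIF2C, KIF18A, KIF18B, KIF22, KIF4A, KIF20A, KIF23 and KIF14), chosen by their GENCODE 29 symbols from a table of 58174 genes. Their mRNA was measured in HCT116, an established human colorectal carcinoma cell line, after treatment with dolastatin 15, a tubulin-binding peptide first found in a sea hare, or with solvent alone (DMSO). The 6 groups were 20 nM dolastatin 15 for 16 h, 100 nM for 16 h, solvent for 16 h, 20 nM for 24 h, 100 nM for 24 h and solvent for 24 h, with 2 libraries in each and 12 in all. All groups, drug and solvent alike, were unmodified HCT116 cells seeded in DMEM with 5% fetal bovine serum and held 0.25% DMSO, and HCT116 is 1 line. Treatments were made in duplicate per the labels, which do not say whether the duplicates were cultures of different days, so the p-values below cover only the spread among these libraries, which may be technical.

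A dividing cell separates its chromosomes on a spindle of microtubules, and each kinesin here has its own place on it. KIF11 (Eg5) pushes the spindle poles apart and KIFC1 (HSET) pulls the opposite way. KIF2C (MCAK), KIF18A and KIF18B shorten microtubule ends, KIF22 (Kid) and KIF4A sit on chromosome arms, and KIF20A (MKLP2), KIF23 (MKLP1) and KIF14 act at the midzone when the cell cleaves. mRNAs of this family are made mainly in G2 and mitosis, and drugs that block microtubule assembly hold cells in mitosis. In bulk RNA, more cells of one cell cycle stage and more mRNA per cell cannot be told apart.

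Values are FPKM, a fragment count corrected for transcript length and library size, which keep no read counts, so the depth is unknown. FPKM summed to between 911720 and 1049886 per library, and 20368 to 21519 genes were above 0. The epithelial markers EPCAM (250.6 to 335 FPKM), KRT8, KRT18 and KRT19 were high in each library, CDX2 stood at 11.9 to 18.5 and CDH1 at 2.91 to 3.92, while KRT20 and VIL1, 2 of 8 listed markers, were below 1 FPKM in all 12 libraries. Of 5 immune markers 4 were below 1 FPKM in all libraries, MS4A1 being listed at 0, and their sum followed CD68, which was 7.04 to 7.55 in solvent and 9.25 to 10.6 with drug at 16 h, and 9.16 to 11.5 in solvent and 14.3 to 18.9 with drug at 24 h. Sums of 6 fibroblast markers, carried by COL1A1, were 3.84 to 4.75 in the 4 solvent libraries and 1.67 to 3.62 in the 8 drug libraries, and 3 endothelial markers summed to at most 0.40. The part of CD68 and COL1A1 in the results below was not tested.

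KIF22 was the most abundant of the 10 and KIF14 the least abundant in each of the 12 libraries. In the 16 h solvent libraries the mean level was 113 ± 1.14 FPKM (SD, n = 2) for KIF22 (Ensembl ENSG00000079616), 86.2 ± 0.785 for KIF2C (ENSG00000142945), 65.7 ± 2.65 for KIFC1 (ENSG00000237649), 60.5 ± 1.8 for KIF23 (ENSG00000137807) and 51.1 ± 0.566 for KIF20A (ENSG00000112984). The lower 5 were KIF4A (ENSG00000090889) at 35.7 ± 1.36, KIF18B (ENSG00000186185) at 34.98 ± 0.346, KIF11 (ENSG00000138160) at 23.6 ± 0.0849, KIF18A (ENSG00000121621) at 19.8 ± 0.375 and KIF14 (ENSG00000118193) at 12.0 ± 0.311. KIF4A and KIF18B overlapped there, and the other neighbours in this order did not. All 10 passed the filter on low values (at least 1 FPKM in at least 2 libraries), since the lowest single value was 8.30 FPKM. Across the 6 groups the highest group mean was 1.81 times the lowest for KIF14, 1.74 for KIF20A, 1.52 for KIF2C and 1.48 for KIF11, and only 1.13 for KIF22.

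**Figure D1:**
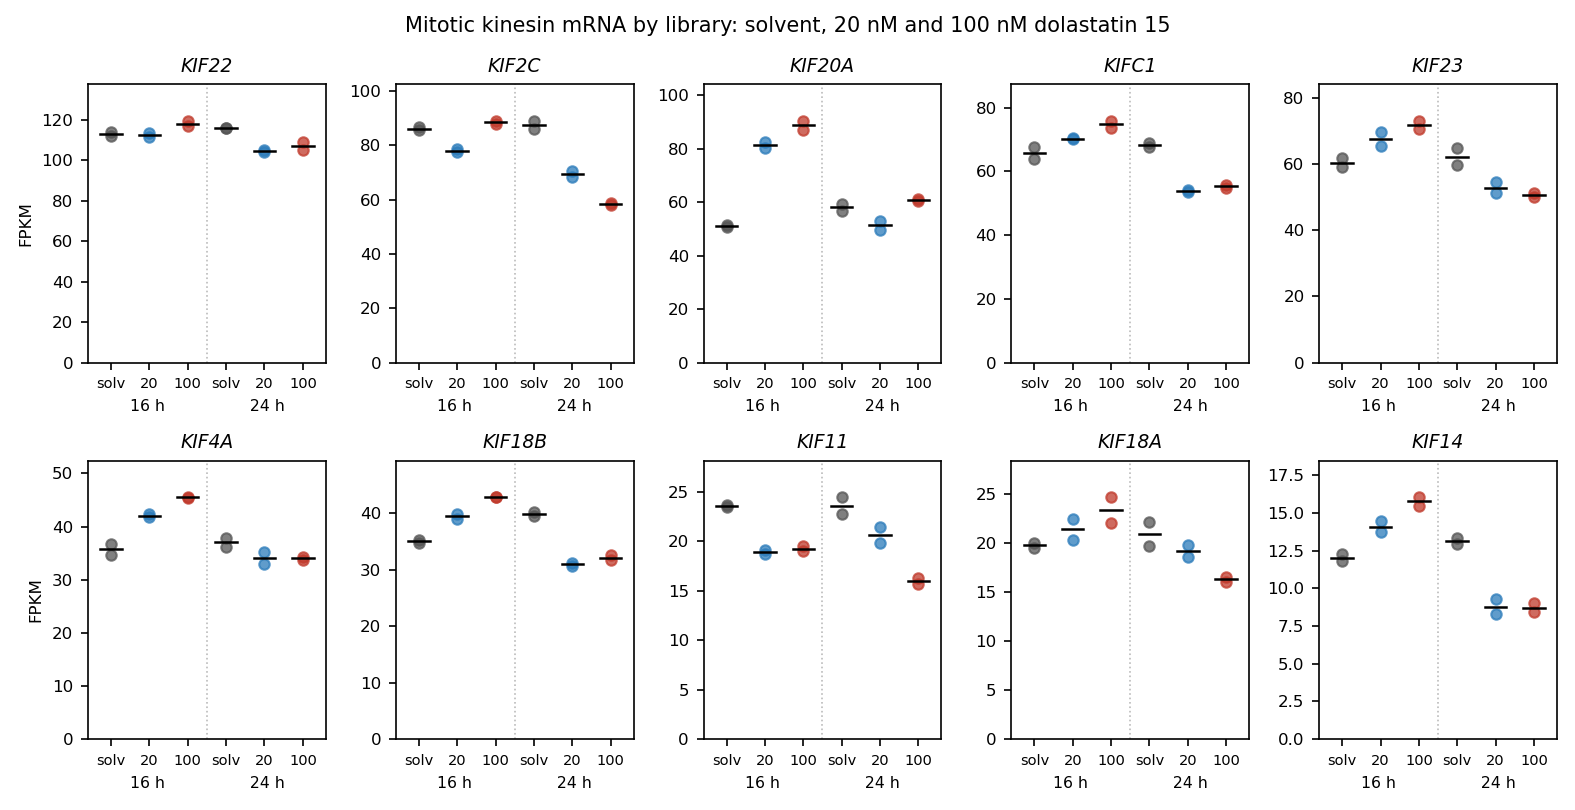
FPKM (y axis, linear, from 0) of each mitotic kinesin in the 12 libraries; points are libraries, bars are the means of 2 libraries, and solv, 20 and 100 stand for solvent, 20 nM and 100 nM dolastatin 15 at 16 h (left of the dotted line) and 24 h (right). KIF20A lies at 80.3 to 90.4 in the 16 h drug libraries against 50.6 and 51.4 in solvent, and KIF14 at 8.30 to 9.28 in the 24 h drug libraries against 12.98 and 13.3.

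The genes lie on 9 chromosomes (GENCODE 29 on GRCh38): KIF2C on chromosome 1 from 44739818 to 44767767, KIF14 on 1 from 200551497 to 200620734, KIF20A on 5 from 138178719 to 138187715, KIFC1 on 6 from 33391536 to 33409924, KIF11 on 10 from 92593286 to 92655395, KIF18A on 11 from 28020620 to 28108308, KIF23 on 15 from 69414246 to 69448427, KIF22 on 16 from 29790719 to 29805385, KIF18B on 17 from 44924709 to 44947711 and KIF4A on X from 70290090 to 70420832. KIF14, KIF18A and KIF18B are on the minus strand. Genes of late cell cycle phases are known to carry a cell cycle genes homology region (CHR) near the start site, bound by the MuvB core of the DREAM and B-MYB complexes, often with a CCAAT box, bound by NF-Y. Both were therefore looked for in the RefSeq promoter window of each member (GRCh38.p14, 250 bases before to 50 after the start site), which was found for all 10. For 1 member a second window was listed, and the one at the start of its RefSeq gene was used. RefSeq start sites differ from the GENCODE gene starts given above, that of KIF20A being 138179112 against 138178719. The canonical CHR, TTTGAA, was searched on both strands. So were 3 variant forms. The first variant form is TTTAAA. The second variant form is TTCGAA, and both of these read alike on either strand and were counted once. The last variant form is CTTGAA. The box searched with them was CCAAT. A given run of 6 bases can match only 1 of the 4 CHR forms. The motifs were chosen with some of these windows in view.

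TTTGAA was in 7 of the 10 windows, against 15.2% of all 35116 RefSeq windows of that length. TTTAAA was in 4 (12.2% of all windows), TTCGAA in the KIF22 window alone of the 10 (1.45% of all) and CTTGAA in the KIF20A window alone (11.2%). CCAAT was in 9 (34.6%). Each of the 10 windows held at least 1 CHR form, which 32.2% of all windows did, and 7 held TTTGAA with CCAAT, which 5.90% did. Each of the 12 CCAAT boxes in these 9 windows had a CHR form downstream of it, and 4 to 74 bases lay between a box and the nearest such form. A match is a run of letters and not a measured binding site. The stretches from 100 bases before to 20 after the start site are shown for 6 members, with CHR forms and the CCAAT box in capitals (the box read as ATTGG where the box is on the other strand, and the canonical CHR as TTCAAA), each 5′ to 3′ along the gene. They are KIF20A, whose mRNA rose most (chr5:138179012-138179131, plus strand), KIF14, with the widest range (chr1:200620732-200620851, minus strand), KIF23, where the motifs are closest (chr15:69414249-69414368, plus strand), KIF11, which was lower in all 4 drug groups (chr10:92593030-92593149, plus strand), KIF2C, whose window had no CCAAT (chr1:44739737-44739856, plus strand), and KIF22, with the narrowest range (chr16:29790651-29790770, plus strand).
KIF20A: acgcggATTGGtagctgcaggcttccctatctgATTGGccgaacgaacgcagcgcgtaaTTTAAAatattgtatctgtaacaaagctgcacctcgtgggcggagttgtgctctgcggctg
KIF14: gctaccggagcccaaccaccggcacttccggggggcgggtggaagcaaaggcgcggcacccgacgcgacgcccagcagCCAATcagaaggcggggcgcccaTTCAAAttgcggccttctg
KIF23: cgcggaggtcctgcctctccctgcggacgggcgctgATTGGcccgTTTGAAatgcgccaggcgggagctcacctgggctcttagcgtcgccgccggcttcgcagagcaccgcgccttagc
KIF11: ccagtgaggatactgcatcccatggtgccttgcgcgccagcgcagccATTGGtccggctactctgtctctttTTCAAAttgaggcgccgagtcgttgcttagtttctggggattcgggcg
KIF2C: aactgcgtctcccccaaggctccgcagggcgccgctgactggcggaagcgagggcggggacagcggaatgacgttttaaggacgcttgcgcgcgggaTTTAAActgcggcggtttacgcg
KIF22: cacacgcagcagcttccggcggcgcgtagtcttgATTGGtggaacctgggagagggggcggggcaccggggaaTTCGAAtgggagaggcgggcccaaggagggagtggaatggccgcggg
In these letters KIF20A has a pair of CCAAT boxes and TTTAAA in place of TTTGAA, with 21 bases between the nearer box and the CHR. KIF11 has TTTGAA with 20 bases between, KIF14 has it with 18, and KIF23 has it with 4. The strands of the box and the CHR differ among KIF11, KIF14 and KIF23. The windows of KIF14 and KIF23 also hold TTTAAA farther upstream, 198 and 211 bases before the start site. Any link between these motifs and the mRNA changes was not tested.

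**Figure D2:**
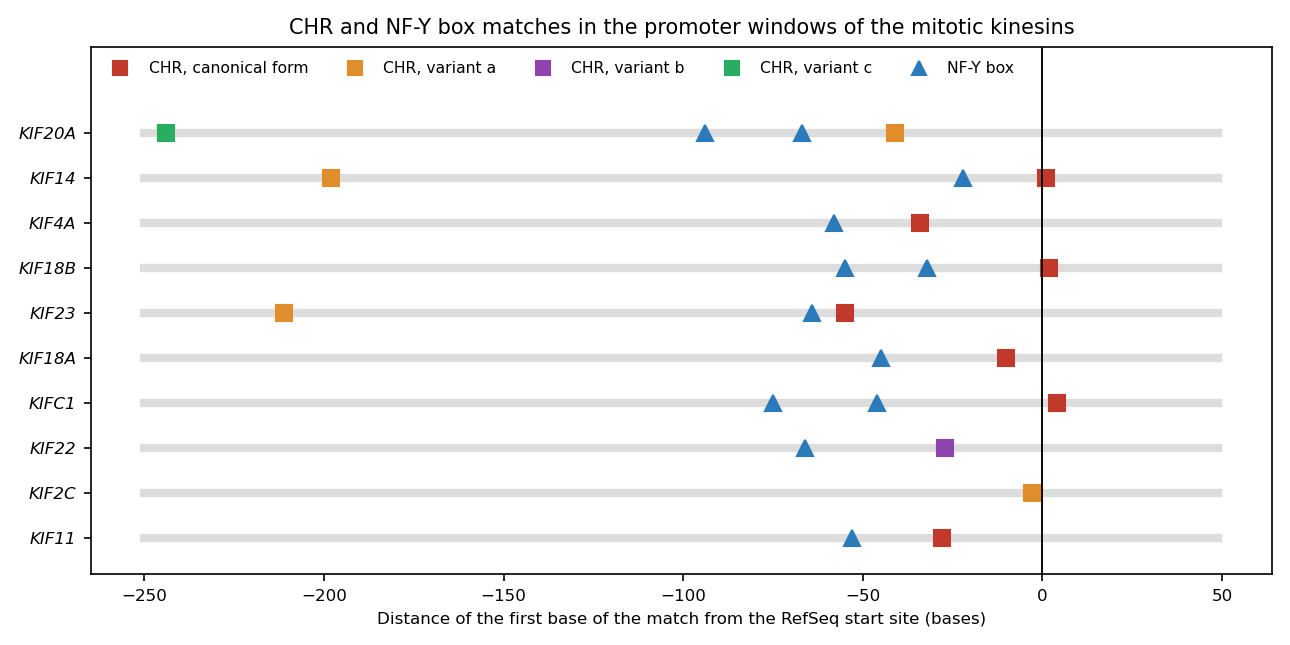
Distance in bases (x axis) of each motif match from the RefSeq start site (vertical line at 0) in the 10 promoter windows (grey bars); red squares are the canonical CHR (TTTGAA), orange, purple and green squares the variants a (TTTAAA), b (TTCGAA) and c (CTTGAA), and blue triangles the NF-Y box (CCAAT). A reader should see a CHR form in all 10 rows and a CCAAT box in 9, KIF2C being the row without one.

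After 16 h of dolastatin 15 most mitotic kinesins stood above solvent, with KIF20A far ahead, while KIF11 was lower at both doses and KIF2C at 20 nM. At 20 nM KIF20A, KIF4A and KIF18B rose, KIF11 and KIF2C fell, and 5 did not pass the test (limma, Benjamini-Hochberg adjusted p under 0.05 over 13458 genes). In that comparison 17.7% of all genes passed, 6.78% of all genes being higher (912 genes), and the other 1476 that passed were lower. At 100 nM KIF20A, KIF14, KIF4A, KIF18B, KIF23 and KIFC1 rose and KIF11 fell, where 23.8% of all genes passed, 9.16% being higher and 14.7% lower. The median log2 change of the 10 was 0.13 at 20 nM and 0.24 at 100 nM, against -0.02 and -0.03 over all tested genes. Counted by libraries alone, 7 members at 20 nM and 9 at 100 nM had both drug libraries above both solvent libraries, which 27.1% and 26.6% of all genes had. Both doses were compared with the same pair of solvent libraries. The count of 5 at 20 nM was 2 without library 1, library 2 or solvent library 6, and 3 without solvent library 5, KIF20A and KIF11 passing each time. With median-of-ratios scaling 6 members rose at 20 nM in place of 3, KIF23, KIF14 and KIFC1 being added (adjusted p = 0.0442, 0.0275 and 0.0356), and the fall of KIF2C was lost (0.0619). That scaling moved all genes as well: 1241 were higher in place of 912 and 1215 lower in place of 1476, with a median log2 change of 0.00.

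By 24 h the picture had turned. At 20 nM 8 members fell (KIF11, KIF20A, KIF23, KIF2C, KIF18B, KIF14, KIFC1 and KIF22) in a comparison where 28.8% of all genes passed and 14.1% were lower. In a fit of only the libraries compared, KIF11, KIF20A, KIF23 and KIF22 lost this call (adjusted p = 0.168, 0.127, 0.104 and 0.102). Of all genes 1027 passed in that fit, in place of 3880. At 100 nM 8 fell as well (KIF11, KIF23, KIF2C, KIF18A, KIF18B, KIF14, KIFC1 and KIF22), where 33.8% of all genes passed and 18.4% were lower. The median log2 change of the 10 was -0.21 and -0.30, against 0.00 and -0.02 over all tested genes. The count of 8 at 20 nM was 5 without library 7 and 4 without solvent library 12. In both comparisons 9 members had both drug libraries below both solvent libraries, which 31.1% and 37.9% of all genes had. The summed FPKM of the 10 gives the same turn, with 498 and 508 in solvent, 539 and 552 under 20 nM and 584 and 593 under 100 nM at 16 h, then 521 and 533 in solvent, 438 and 454 under 20 nM and 438 and 441 under 100 nM at 24 h. Genes encoded in mitochondria held 23.8% and 25.8% of the FPKM in the 20 nM libraries at 24 h, 18.8% and 20.7% at 100 nM and 17.9% and 18.6% in solvent. With each library rescaled to a common sum over the other genes, 9 members were lower at each dose. Of all 13458 genes 2684 were then lower at 20 nM and 3335 at 100 nM, in place of 1896 and 2475. The median log2 change over all genes was then -0.06 and -0.08.

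**Figure D3:**
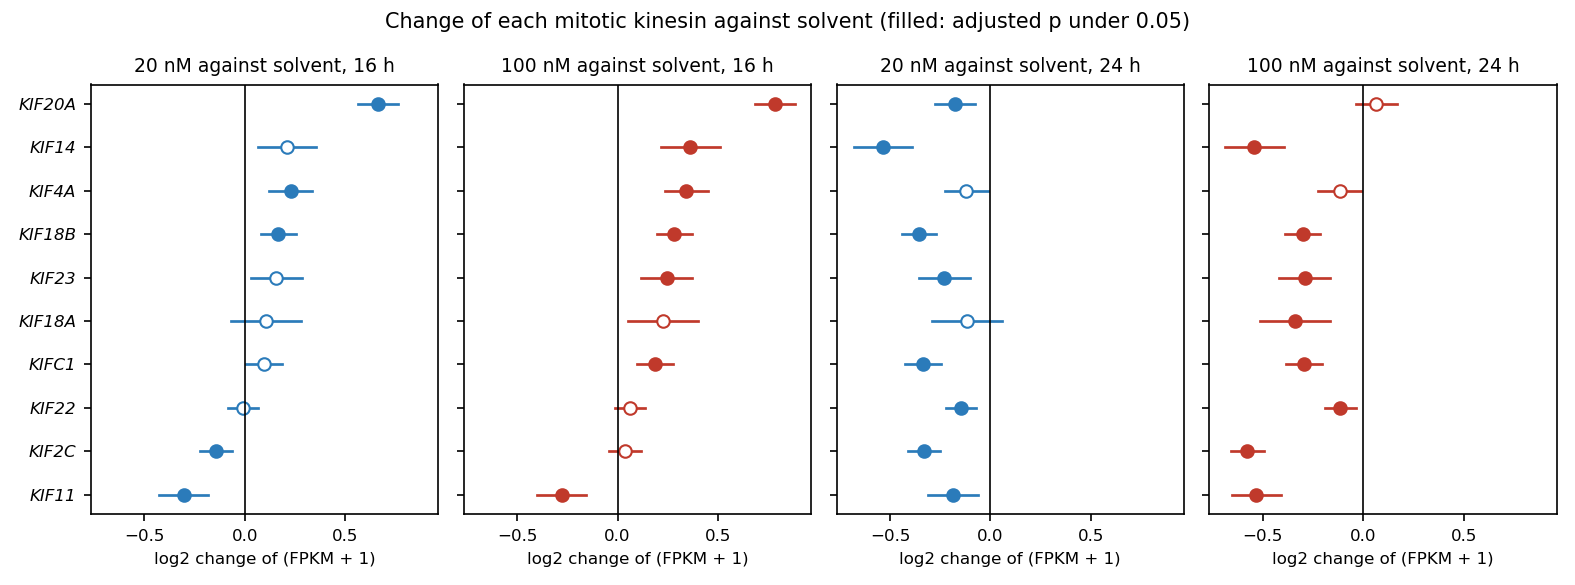
Change of each mitotic kinesin against solvent on the log2(FPKM + 1) scale (x axis) with its 95% interval, in 4 panels for 20 nM and 100 nM at 16 h and 24 h; filled points passed the test. At 16 h the points run from -0.30 (KIF11, 20 nM) to 0.79 (KIF20A, 100 nM), and at 24 h from -0.58 (KIF2C, 100 nM) to 0.06 (KIF20A, 100 nM).

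Of the motors that set the distance between the poles, KIF11 was lower with drug at both times. At 16 h KIF11 stood at 23.6 and 23.5 FPKM in solvent, 19.1 and 18.7 under 20 nM and 19.5 and 19.0 under 100 nM. After 24 h its values were 22.7 and 24.4 in solvent, 19.8 and 21.4 under 20 nM and 15.7 and 16.3 under 100 nM. In each of the 4 comparisons both drug libraries lay below both solvent libraries. The log2 change was -0.30 ± 0.05 (SE, here and below, n = 2 libraries per group) at 20 nM and -0.28 ± 0.05 at 100 nM at 16 h (adjusted p = 0.00653 and 0.00706), then -0.19 at 20 nM and -0.53 at 100 nM at 24 h (adjusted p = 0.0326 and 0.000212). Each SE rests on a spread fitted over all 12 libraries, not on that of the compared libraries alone. The 20 nM call at 24 h was lost without library 1 of the 20 nM 16 h group (adjusted p = 0.0501), without library 7 of its own drug group (0.145) and without solvent library 12 (0.183).

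KIFC1, the minus-end motor that opposes KIF11, did not follow it at 16 h. It stood at 67.6 and 63.8 FPKM in solvent, at 70.3 in both 20 nM libraries and at 73.7 and 75.9 at 100 nM, and rose at 100 nM by a log2 change of 0.18 ± 0.04 (adjusted p = 0.0103). The 24 h values were 67.6 and 68.9 in solvent, 53.6 and 54.3 under 20 nM and 55.9 and 54.9 under 100 nM. There it fell at both doses, by 0.33 at 20 nM and 0.30 at 100 nM on the log2 scale (adjusted p = 0.000557 and 0.000727). The ratio of KIFC1 to KIF11, which no scaling of a library can move, was 2.72 and 2.86 in solvent and 3.69 to 3.999 with drug at 16 h. The 24 h ratio was 2.82 and 2.98 in solvent, 2.53 and 2.71 under 20 nM and 3.37 and 3.56 under 100 nM, so the 100 nM libraries stood above solvent at both times and the 20 nM libraries only at 16 h. The 100 nM call for KIFC1 at 16 h was lost without library 4 or solvent library 6 (adjusted p = 0.0641 and 0.0707) and with only the 4 libraries compared (0.0746).

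Among the motors that shorten microtubules, KIF2C had the largest fall at 100 nM at 24 h and KIF18B at 20 nM. KIF2C, a depolymerase that corrects faulty kinetochore attachments, stood at 86.7 and 85.6 FPKM in solvent, 78.5 and 77.5 under 20 nM and 88.0 and 88.8 under 100 nM at 16 h. After 24 h KIF2C stood at 89.0 and 86.1 in solvent, 68.2 and 70.7 under 20 nM and 58.0 and 58.7 under 100 nM, with no overlap between any pair of these groups. At 24 h it fell by 0.33 ± 0.04 at 20 nM and 0.58 ± 0.04 at 100 nM on the log2 scale (adjusted p = 0.000375 and 1.43e-05). At 16 h it fell by 0.14 at 20 nM (adjusted p = 0.0259), while at 100 nM the change was 0.04, with a 95% interval from -0.04 to 0.12. The 16 h call at 20 nM was lost without any 1 of the 4 libraries compared (adjusted p = 0.0808 to 0.136) and with median-of-ratios scaling (0.0619).

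KIF18A, which limits the swings of chromosomes at the metaphase plate, stood at 20.1 and 19.5 FPKM in solvent, 22.5 and 20.4 under 20 nM and 22.1 and 24.7 under 100 nM at 16 h. Its changes of 0.11 at 20 nM and 0.23 at 100 nM on the log2 scale did not pass the test (adjusted p = 0.373 and 0.0630). At 24 h the values were 19.7 and 22.2 in solvent, 18.6 and 19.8 under 20 nM and 16.6 and 16.1 under 100 nM, so the 20 nM group overlapped solvent and the 100 nM group did not. KIF18A fell at 100 nM by 0.34 ± 0.08 (adjusted p = 0.00967), and this call was lost without library 10 or solvent library 12 (0.0557 and 0.0730). It had the widest standard error of the 10. Its paralog KIF18B, which keeps astral microtubules short, changed more evenly. KIF18B stood at 35.2 and 34.7 in solvent, 38.9 and 39.9 under 20 nM and 42.8 in both 100 nM libraries at 16 h, then at 40.3 and 39.5 in solvent, 30.6 and 31.2 under 20 nM and 31.7 and 32.6 under 100 nM at 24 h. It rose by 0.17 ± 0.04 and 0.28 ± 0.04 at 16 h (adjusted p = 0.0174 and 0.00101) and fell by 0.36 and 0.30 at 24 h (0.000352 and 0.000546). The 20 nM call at 16 h was lost without any 1 of the 4 libraries compared (0.0649 to 0.113).

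Of the chromosome arm motors KIF22 moved little and KIF4A rose at 16 h. KIF22, the most abundant member, stood at 112 and 114 FPKM in solvent, 113 and 111 under 20 nM and 120 and 117 under 100 nM at 16 h. The log2 change there was -0.01 at 20 nM (95% interval -0.08 to 0.07) and 0.06 at 100 nM (-0.01 to 0.14), and neither passed the test. At 24 h KIF22 stood at 116 in both solvent libraries, 105 and 104 at 20 nM and 109 and 105 at 100 nM. It fell by 0.15 ± 0.03 and 0.11 ± 0.03 (adjusted p = 0.0120 and 0.0284), and these were the smallest called changes at 24 h. The 20 nM call was lost without solvent library 11 or 12 (0.0631 and 0.0532) and the 100 nM call without any 1 of the 4 libraries compared (0.0534 to 0.159).

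KIF4A, which slows microtubule growth on chromosomes and at the midzone, stood at 36.6 and 34.7 FPKM in solvent, 42.3 and 41.7 under 20 nM and 45.5 in both 100 nM libraries at 16 h. The 24 h libraries of KIF4A stood at 36.2 and 37.9 in solvent, 32.9 and 35.1 under 20 nM and 34.4 and 33.7 under 100 nM. It rose at 16 h by 0.23 ± 0.05 and 0.34 ± 0.05 (adjusted p = 0.0117 and 0.00121). At 24 h the log2 change was -0.12 at both doses and did not pass (0.0884 and 0.0857), although neither drug group overlapped solvent. These 24 h changes did pass with libraries rescaled to a common sum over genes not encoded in mitochondria (-0.19 at each dose, adjusted p = 0.0195 and 0.0166). The 16 h call at 20 nM was lost without library 1, library 2 or solvent library 6 (0.0751, 0.0579 and 0.0755). KIF4B, a nearly identical copy of KIF4A, was listed at 0.01 to 0.05 FPKM. How reads were divided between the copies was not tested, so the KIF4A values are uncertain to that extent.

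Among the cytokinesis motors KIF20A had the strongest rise of all 10 members. KIF20A, which brings the chromosomal passenger complex to the midzone, stood at 51.4 and 50.6 FPKM in solvent, 82.6 and 80.3 under 20 nM and 87.0 and 90.4 under 100 nM at 16 h. It rose by 0.66 ± 0.04 and 0.79 ± 0.04 on the log2 scale (adjusted p = 4.37e-05 and 8.13e-06), which is 59.6% and 73.8% above the solvent mean. At that time KIF20A had passed KIFC1 and KIF23 in abundance. At 20 nM it also lay above KIF2C, and at 100 nM it overlapped KIF2C. The 24 h values of KIF20A were 56.7 and 59.5 in solvent, 49.7 and 52.8 under 20 nM and 61.3 and 60.3 under 100 nM. At 20 nM it fell by 0.18 (adjusted p = 0.0172, lost without library 7 or solvent library 12 at 0.0740 and 0.107), and at 100 nM the change was 0.06, with a 95% interval from -0.04 to 0.17. KIF20A made up 14.9% to 15.2% of the summed FPKM of the 10 in the 16 h drug libraries and 10.1% to 10.2% in solvent. At 24 h its share was 10.9% and 11.2% in solvent, 11.3% and 11.6% under 20 nM and 13.8% and 13.9% under 100 nM.

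The exons of KIF20A share 132 bases with BRD8 and 68 bases with CDC23, genes of the opposite strand, of 3958 exonic bases in all. The library kit marks strand, but no source used here states whether the counting used it, so reads of these bases are uncertain. The same holds for bases that other members share with expressed genes of the opposite strand. KIF4A shares 77 with PDZD11, KIF18A 61 with METTL15 and KIF23 231 with AC027237.3, which averaged 35.1, 10.3 and 1.58 FPKM. BRD8 did not pass the test in any of the 4 comparisons with solvent (log2 change 0.18 ± 0.12 at 100 nM at 16 h). CDC23 fell at 100 nM at 16 h (log2 change -0.29, adjusted p = 0.00962). How reads of the shared bases were assigned was not tested.

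KIF23, the motor subunit of centralspindlin, stood at 61.8 and 59.2 FPKM in solvent, 69.8 and 65.4 under 20 nM and 70.7 and 73.2 under 100 nM at 16 h. The 100 nM change of 0.25 ± 0.06 passed (adjusted p = 0.0138) and the 20 nM change of 0.16 did not (0.0878). At 24 h it stood at 59.7 and 64.9 in solvent, 51.3 and 54.7 under 20 nM and 50.05 and 51.3 under 100 nM, and fell by 0.23 and 0.29 (0.0149 and 0.00430). KIF23 thus showed a rise and a fall of similar size. The 16 h call was lost without library 4 or solvent library 6 (0.0771 and 0.0815), and the 20 nM call at 24 h without library 7 or solvent library 12 (0.0703 and 0.0992).

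KIF14, which brings citron kinase to the midbody, was the least abundant member and had the widest swing. It stood at 12.3 and 11.8 FPKM in solvent, 14.5 and 13.8 under 20 nM and 15.5 and 16.1 under 100 nM at 16 h. At 24 h it stood at 12.98 and 13.3 in solvent, 8.30 and 9.28 under 20 nM and 9.03 and 8.41 under 100 nM, with the drug doses overlapping each other and lying below both solvent libraries. The rise at 100 nM at 16 h was 0.36 ± 0.06 (adjusted p = 0.00416), and the change of 0.21 at 20 nM missed the threshold (0.0510). KIF14 fell at 24 h by 0.53 ± 0.06 and 0.54 ± 0.06 (0.000604 and 0.000408), a change of the mean level by -33.2% and -33.7%.

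The difference between the 24 h and the 16 h effect was tested for each member as an interaction. At 20 nM the effect was lower at 24 h for 7 of 10 members, where 11.5% of all genes passed and 4.46% were lower. The differences were -0.84 ± 0.06 for KIF20A (adjusted p = 0.000353), -0.75 for KIF14 (0.00218), -0.52 for KIF18B (0.00116), -0.43 for KIFC1 (0.00271), -0.39 for KIF23 (0.0169), -0.35 for KIF4A (0.0133) and -0.19 for KIF2C (0.0452). KIF11 had a difference of 0.12, with a 95% interval from -0.06 to 0.29. At 100 nM the effect was lower at 24 h for 9 of 10, where 10.2% of all genes passed and 4.29% were lower. KIF14 had the largest difference (-0.91 ± 0.09, adjusted p = 0.00101), followed by KIF20A (-0.72), KIF2C (-0.61), KIF18B (-0.59), KIF18A (-0.57), KIF23 (-0.54), KIFC1 (-0.48), KIF4A (-0.46) and KIF22 (-0.18, adjusted p = 0.0470). KIF11 at 100 nM had a difference of -0.25 with a 95% interval from -0.43 to -0.08, which missed the threshold after adjustment (0.0719). It passed with libraries rescaled to a common sum over all genes (0.0347) or over genes not encoded in mitochondria (0.0449), and without library 7 or 8 of the 20 nM group (0.0466 and 0.0468). The KIF2C call at 20 nM was lost without any 1 of 11 libraries (0.0626 to 0.142), and the KIF22 call at 100 nM without any 1 of 10 (0.0775 to 0.146). At 20 nM the KIF4A call was lost without library 1 (0.0529) and the KIF23 call without library 1, solvent library 6 or solvent library 12 (0.0665, 0.0551 and 0.0543). At 100 nM the KIF18A call was lost without solvent library 6, library 10 or solvent library 12 (0.0521, 0.0562 and 0.0534). Without library 1 the count at 20 nM was 4.

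**Figure D4:**
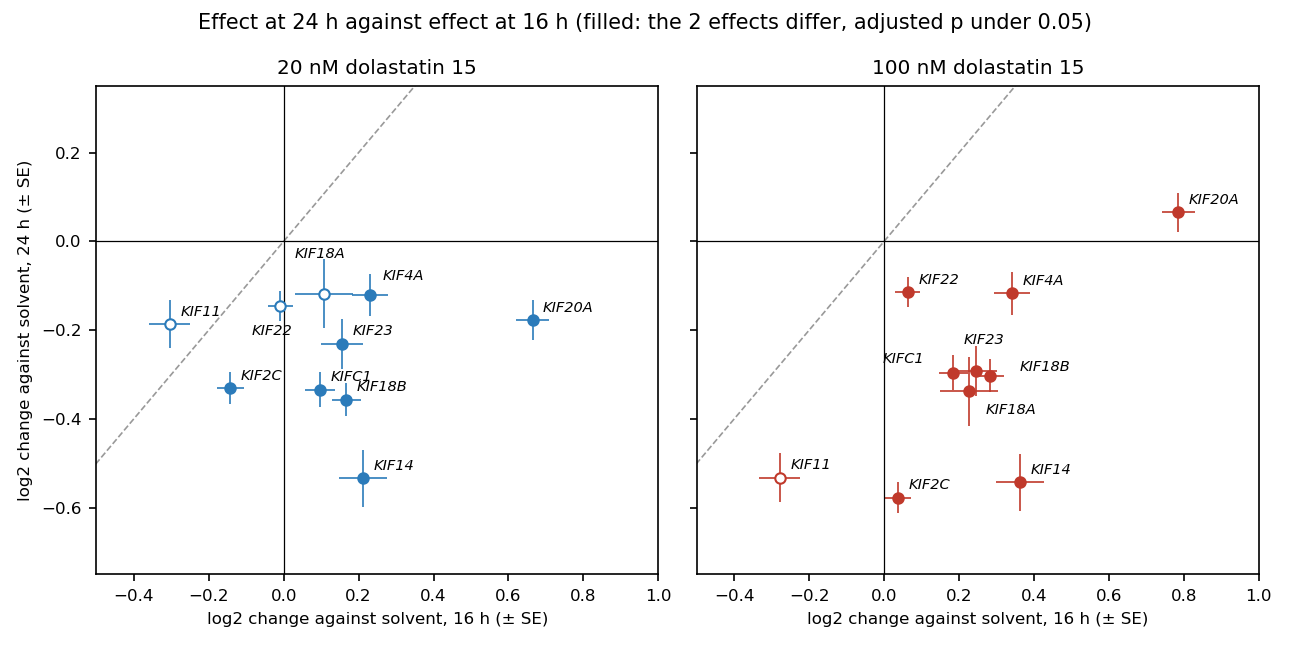
Log2 change against solvent at 16 h (x axis) and at 24 h (y axis) for each mitotic kinesin at 20 nM (left) and 100 nM (right), with bars of 1 SE; the dashed line marks equal effects and filled points are those whose difference between the times passed the test. Every point but KIF11 at 20 nM lies below the dashed line, KIF20A farthest to the right.

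At 16 h no member passed the test between the doses, although 8 of 10 had both 100 nM libraries above both 20 nM libraries, which 21.7% of all genes had. At 100 nM all 10 members had a higher mean than at 20 nM, with log2 differences from 0.03 (KIF11) to 0.18 (KIF2C), but limma called 0 of them (0.320% of all genes passed, and 5 of the 10 members had an unadjusted p under 0.05). The largest difference, that of KIF2C, had a 95% interval from 0.10 to 0.26 and an adjusted p of 0.0926. At 24 h 3 members differed between the doses, where 4.88% of all genes did, 1.82% higher and 3.06% lower at 100 nM. KIF11 was lower at 100 nM than at 20 nM by a log2 difference of -0.35 ± 0.05 (adjusted p = 0.0142) and KIF2C by -0.25 ± 0.04 (0.0104), while KIF20A was higher by 0.24 ± 0.04 (0.0231). For KIF14 the difference at 24 h was -0.01, with a 95% interval from -0.15 to 0.14, and for KIF4A it was 0.00, from -0.10 to 0.11. The count of 3 dropped to 0 without library 9 or library 10 of the 100 nM group (adjusted p = 0.109 and 0.0699 for KIF11, 0.0896 and 0.0639 for KIF2C, 0.145 and 0.0988 for KIF20A), and the KIF11 call was also lost without library 8 (0.0734).

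In solvent alone the kinesins differed little between 24 h and 16 h. KIF18B (log2 difference 0.18, adjusted p = 0.0297) and KIF20A (0.18, adjusted p = 0.0491) were higher at 24 h, where 5.62% of all genes passed and 3.14% were higher. All 10 differences were positive, the smallest being 0.00 for KIF11. Either call rests on thin margins: KIF20A was lost without any 1 of 10 libraries (adjusted p = 0.0609 to 0.237) and KIF18B without any 1 of 6 (0.0518 to 0.132).

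Other genes that work with these motors were counted from fixed lists. Of 6 other kinesins with spindle roles 4 were tested. CENPE, the kinetochore motor, rose at 16 h (0.29 at 20 nM and 0.43 at 100 nM, adjusted p = 0.0274 and 0.00382) and fell at 24 h (-0.52 at both doses, 0.00138 and 0.00108). KIF2A, a depolymerase of spindle poles related to KIF2C, fell at 16 h by 0.41 at 20 nM and 0.48 at 100 nM (0.00458 and 0.00149) and at 100 nM at 24 h by 0.41 (0.00226). KIF20B rose at 100 nM at 16 h (0.23, adjusted p = 0.0163), and KIF15, which can stand in for KIF11, did not pass in any of the 4 comparisons. CENPE thus went up and then down, as KIF18B did, and KIF2A was lower at both times at 100 nM, as KIF11 was.

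Among 27 kinesins of transport and other roles 19 were tested. At 16 h 3 of these 19 fell at each dose and 16 did not pass, where 1476 of 13458 genes fell at 20 nM and 14.7% at 100 nM, so these counts are near the background. At 24 h 5 fell and 1 rose at 20 nM, where 14.1% of all genes fell and 14.7% rose. At 100 nM 8 fell and 1 rose, where 18.4% fell and 15.4% rose. Their median log2 change lay between -0.13 and -0.10 in the 4 comparisons. KIFC2, a motor of the same class as KIFC1, fell in all 4 (-0.64, -0.72, -0.36 and -0.58), and KIF9, a motor of motile cilia, was the 1 that rose at 24 h (0.48 and 0.60). Of 6 kinesin light chains and adaptors 1 fell at 20 nM and 2 at 100 nM at 16 h, and 2 and 1 fell at 24 h, in the same comparisons. KIFAP3, the adaptor of kinesin-2, was lower in all 4 comparisons (-0.64, -0.59, -0.21 and -0.67).

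Partners and regulators of the mitotic kinesins were 23 genes, all tested. At 16 h 10 rose and 6 fell at 20 nM, and 14 rose and 5 fell at 100 nM, where 6.78% and 9.16% of all genes rose. Of all genes 1476 of 13458 fell at 20 nM and 14.7% at 100 nM at that time. At 24 h 17 fell and 1 rose at 20 nM, and 15 fell and 1 rose at 100 nM, where 14.1% and 18.4% of all genes fell and 14.7% and 15.4% rose. The median log2 change was 0.15, 0.32, -0.27 and -0.25 in the order of these comparisons. AURKA, the kinase of the spindle poles, rose at 16 h by 0.62 and 0.83 and fell at 20 nM at 24 h by 0.23. KPNA2, an importin alpha that binds the spindle factor TPX2, fell in all 4 comparisons (-0.94, -1.08, -0.41 and -0.83), as did NUSAP1, a microtubule bundling protein (-0.91, -1.03, -0.27 and -0.85). AURKB and INCENP, the kinase and scaffold of the passenger complex that KIF20A carries, also fell in all 4 (AURKB -0.58, -0.46, -0.61 and -0.96, INCENP -0.56, -0.60, -0.59 and -0.96). BIRC5 and CDCA8, further subunits of that complex, lay above solvent at 16 h. BIRC5 stood there at 78.3 and 75.9 FPKM in solvent and 102 to 120 with drug. CDCA8 stood at 38.8 and 38.2 in solvent and 42.8 to 48.7 with drug. The 24 h values of BIRC5 were 91.8 and 78.7 in solvent and 66.9 to 88.2 with drug. Those of CDCA8 were 39.1 and 38.5 in solvent and 33.0 to 33.6 with drug. Among 13 transcription regulators of G2 and M genes 3 fell at each dose at 16 h. At 24 h 2 rose and 1 fell at 20 nM, and 2 rose and 4 fell at 100 nM, against the shares of all genes given above. RBL1 (p107), a pocket protein of the DREAM complex, had the largest change of that list at 16 h (-0.85 and -1.03, adjusted p = 0.000185 and 3.70e-05) and fell again at 100 nM at 24 h by 0.34 (0.00882). MYBL2 (B-MYB) rose at 24 h by 0.17 and 0.16 (0.00998 and 0.0127). No difference between these lists was tested.

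**Figure D5:**
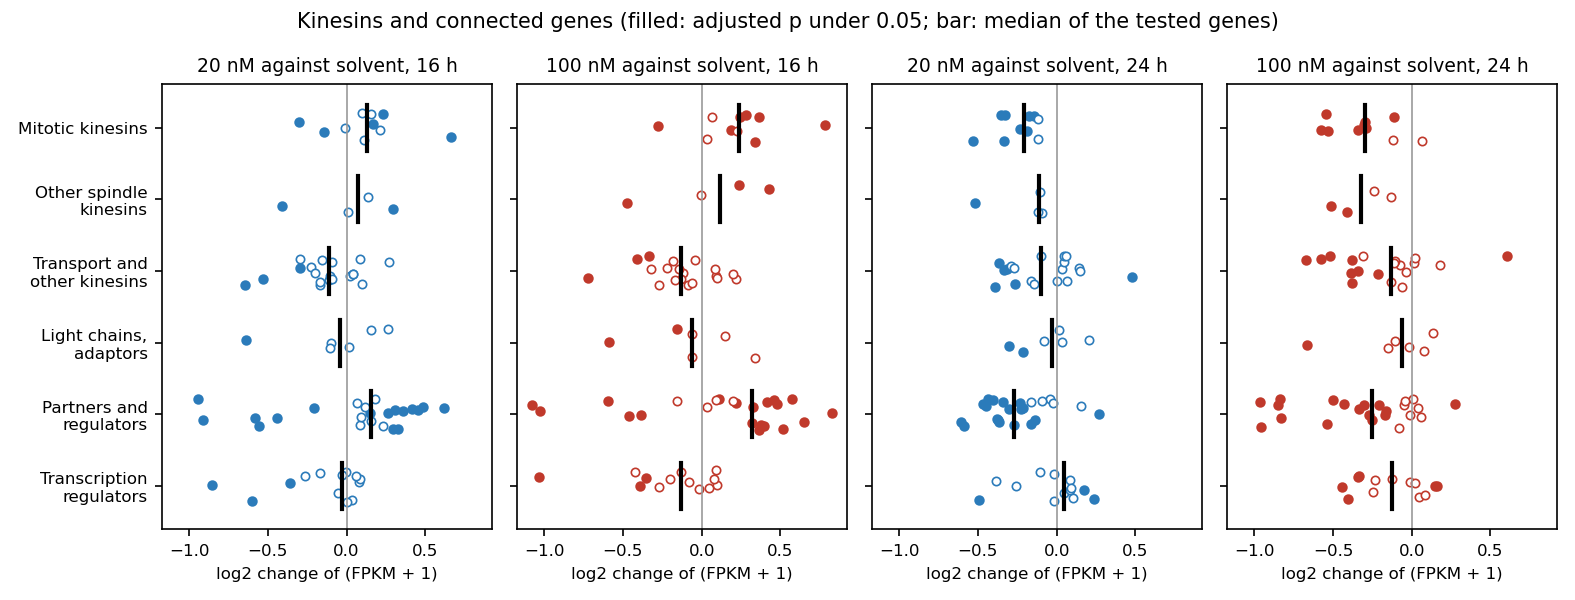
Log2 change against solvent (x axis) of each tested gene in the mitotic kinesins and the 5 lists of connected genes, in 4 panels for 20 nM and 100 nM at 16 h and 24 h; filled points passed the test, bars are list medians, and the vertical spread of points is only for display. The median of the mitotic kinesins moves from 0.13 and 0.24 at 16 h to -0.21 and -0.30 at 24 h, and that of partners and regulators from 0.15 and 0.32 to -0.27 and -0.25.

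On log2(FPKM + 1), Pearson's r over the 12 libraries between KIF14 and KIFC1 was 0.99, between KIF14 and KIF23 0.97 and between KIF18B and KIFC1 0.96. KIF11 had r of 0.75 with KIF2C, 0.44 with KIF18A and 0.21 to 0.36 with KIF22, KIF14, KIFC1, KIF23 and KIF18B, then -0.04 with KIF4A and -0.41 with KIF20A. These are descriptions over 12 libraries that share the 6 groups. Outside the family, 9452 tested genes with a mean of at least 5 FPKM were ranked by their correlation with the member that rose most and the one that fell most at 100 nM at 16 h. The closest to KIF20A were BORA, a cofactor of Aurora A (r = 0.99), ANKRD11 (0.98) and CCNB2, a mitotic cyclin (0.98). BORA stood at 22.6 and 21.3 FPKM in solvent and 34.8 to 37.3 in the 4 drug libraries at 16 h, then at 22.9 and 24.0 in solvent and 21.0 to 24.9 in the 4 drug libraries at 24 h. Its drug libraries thus lay above solvent at 16 h and spread to either side of it at 24 h. The closest to KIF11 were EFR3A (0.98), GPHN (0.97) and AKAP11 (0.97). EFR3A, a plasma membrane scaffold, stood at 23.6 and 22.7 in solvent and 15.6 to 15.9 with drug at 16 h, and at 24.2 and 24.5 in solvent, 18.0 and 19.9 under 20 nM and 12.6 and 13.5 under 100 nM at 24 h.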

How the data were processed

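RNA was poly(A)-selected and sequenced in 12 libraries (6 groups of 2). The authors deposited FPKM per gene and library, with 2 decimals; the submitters' processing notes list RSEM 1.2.28 and GRCh38. The aligner, annotation and strand setting used upstream were not given in the sources used here. FPKM hold no counts, so depth is unknown and the duplicates set the precision. Columns name the group but not the numbered sample of the labels, so no libraries were paired. GENCODE 29 gave symbols for 57836 of 58174 genes and all positions.

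A gene was tested where 2 or more libraries reached 1 FPKM (13458 genes, of which 11660 protein-coding), on log2(FPKM + 1), which understates changes of low genes, with limma 3.58.1 in R 4.3.3: 6 group means over all 12 libraries, a mean-dependent prior (6 residual and 2.98 prior degrees of freedom) and 9 two-sided contrasts. The call threshold was an adjusted p of 0.05 (Benjamini-Hochberg, all tested genes of a contrast). Data were also simulated as independent normal values around each gene's mean over the 12 libraries, with its fitted spread. Of 13458 genes 200 were changed in the 100 nM group at 24 h and tested against solvent. The recovered share was 28% for changes of 1.25-fold, 64% for 1.5-fold, 82% for 2-fold and 100% for 4-fold, and 3.52% of calls were false. In the real data 4550 genes passed in that comparison, so these shares need not hold there. Between 1.00% and 1.20% of values were identical within a group, and each library was kept as its own.

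All 10 members are named. Of each connected list, up to 3 called genes with the largest change per comparison could be named, and likeness was ranked by Pearson's r. BIRC5 and CDCA8 were named in addition, as subunits of the same complex as AURKB and INCENP. The members, lists and motifs were chosen with earlier results of these data known. Alternatives were other pseudocounts, filters, scalings and priors, fits of the compared libraries alone, and each library left out.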

Additional observations from a re-analysis of the deposited data

Results flagged for a closer look

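These results stand out because the effect of a dose against solvent differed between 24 h and 16 h by a test of the difference itself (limma interaction, Benjamini-Hochberg adjusted p under 0.05). Values are the log2 effect at 24 h minus that at 16 h, and the 16 h and 24 h effects share no library, while both doses share the solvent libraries. At 20 nM they were -0.84 for KIF20A, -0.75 for KIF14, -0.52 for KIF18B, -0.43 for KIFC1, -0.39 for KIF23, -0.35 for KIF4A and -0.19 for KIF2C. At 100 nM they were -0.91 for KIF14, -0.72 for KIF20A, -0.61 for KIF2C, -0.59 for KIF18B, -0.57 for KIF18A, -0.54 for KIF23, -0.48 for KIFC1, -0.46 for KIF4A and -0.18 for KIF22. All are below 0, so the effect at 24 h was the lower one each time.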

How the results depend on the processing

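Over the 10 members and 9 comparisons, another pseudocount, filter, scaling, prior or choice of libraries gave 810 values. Of these, 768 stayed on the same side of the threshold, 26 lost their call and 16 gained one. None that was called changed sign, while 10 values called neither before nor after did. Fits without 1 library gave 1080 values, of which 11, called neither before nor after, changed sign. Calls were lost more often than gained there, and none that was called changed sign. Leaving out a library outside a comparison cannot move its log2 change and alters only the shared spread. The count of called members was 3 (20 nM, 16 h), 4 (20 nM, 24 h), 0 (100 nM against 20 nM, 24 h) and 0 (solvent, 24 h against 16 h) with only the libraries compared, which leaves fewer samples for the spread. For solvent at 24 h against 16 h it was 1 with no filter, 1 with a common sum over genes not encoded in mitochondria, 1 with median-of-ratios scaling and 0 with a constant prior; the cause was not tested. Leaving out 1 library gave counts of 2 to 6 for 20 nM and 5 to 7 for 100 nM at 16 h, 4 to 9 and 6 to 8 at 24 h, 0 to 3 between doses at 24 h, 0 to 2 in solvent, and 4 to 7 (20 nM) and 7 to 10 (100 nM) for the effects between times; the count between doses at 16 h was 0 in each fit. Over all genes, only the compared libraries gave 1620 calls in place of 3205 (100 nM, 16 h), 1027 in place of 3880 (20 nM, 24 h), 954 in place of 1550 (20 nM between times), 4 in place of 657 (doses at 24 h), 6 in place of 756 (solvent) and 0 in place of 43 (doses at 16 h). With no filter on low values there were 1008 calls for 20 nM between times, 334 for the doses at 24 h and 326 in solvent. Leaving out 1 compared library lowered the calls at 20 nM at 16 h from 2388 to between 1036 and 1240.

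A common sum over all genes moved the median log2 change of all genes to -0.16 at 20 nM and -0.11 at 100 nM at 24 h and to -0.14 for 20 nM between times. At 24 h 10 and 9 mitotic kinesins were then lower, where 4663 and 3728 of 13458 genes were lower in place of 1896 and 2475. The share of calls over all genes that were higher was 10.9% (51.1% as deposited) and 23.5% (45.6%) there. It was 33.2% and 30.1% with a common sum over genes not encoded in mitochondria. At 16 h median-of-ratios scaling gave 6 and 7 mitotic kinesins higher, with 1241 and 1642 of all genes higher in place of 912 and 1233. The share of calls that were higher was then 50.5% and 49.8% (38.2% and 38.5% as deposited), and 27.8% at 100 nM with a common sum over all genes. Between times it was 14.1%, 40.1% and 50.9% at 20 nM under the common sum, the sum without mitochondrial genes and median-of-ratios scaling (61.3% as deposited), and 37.7% and 39.9% at 100 nM under the first and second (57.7%). Between doses at 24 h it was 82.7% and 58.0% under the common sum and median-of-ratios scaling (37.3%), between doses at 16 h 3.45% under the common sum (13.95%), and in solvent 82.2%, 39.5% and 38.5% (56.0%). No paired analysis was possible because the columns of the table carry no sample number of the labels. Depth is unknown, so no limit from counting could be set.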
